A study of Mus musculus with 8 samples.

Results

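The genes that set quiescence or entry into G1 were described across hematopoietic stem cells (HSCs) and the wider LSK progenitor gate, with and without red blood cells (RBCs). They were taken by symbol from the expression tables: the D cyclins Ccnd1, Ccnd2 and Ccnd3, their kinases Cdk4 and Cdk6, the CDK inhibitors Cdkn1b, Cdkn1c, Cdkn2c and Cdkn2d, and the retinoblastoma gene Rb1. These are 10 of 24346 gene symbols, and all 10 were among the 12003 genes tested. RNA was sequenced from primary bone marrow cells of wild-type mice (labelled WT), kept in culture for 1 day and then sorted for CD45, with 2 libraries in each of 4 groups. The 4 groups were LSK cells alone, LSK cells with RBCs, HSCs alone and HSCs with RBCs. LSK cells were sorted as Lin-/Sca-1+/cKit+, a gate that contains HSCs and multipotent progenitors, and HSCs (labelled LT-HSC) as Lin- Sca-1+ c-Kit+ CD48- CD150+. The RBCs came from mouse blood passed through a leukocyte filter and irradiated, and they were lysed before the sort. The study's methods name adult female or male C57BL/6 mice, with no age or sex given for single libraries. Nothing states that the 2 libraries of a group came from separate animals or cultures, so the p-values measure only the spread between these libraries, which may be technical.

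D cyclins bind and activate CDK4 and CDK6 in early G1, and the active kinases phosphorylate the retinoblastoma protein, which releases E2F factors and lets S phase genes be transcribed. INK4 inhibitors (Cdkn2c encodes p18, Cdkn2d encodes p19) bind CDK4 and CDK6 themselves, whereas Cip/Kip inhibitors (Cdkn1b encodes p27, Cdkn1c encodes p57) bind cyclin-CDK complexes. In HSCs p57 and p27 are known for their part in keeping the cells out of cycle, and Cdk6 is known to be scarce in the most dormant stem cells and to set how fast they leave that state. The transcripts only were measured here, and several of these proteins are regulated mainly by degradation or phosphorylation.

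HSCs and LSK cells differed in 6 of the 10 genes when both culture conditions were averaged. The RBC difference averaged over both cell types passed for 2 of the 10. Cdk6 and Rb1 were higher in LSK cells, while Ccnd1, Ccnd3, Cdkn1c and, by a small margin, Cdk4 were higher in HSCs. With RBCs, Cdkn2d rose and Cdk6 fell on average over both cell types, though Cdk6 passed in neither cell type by itself. Values are FPKM, that is, fragments scaled to transcript length and library size, and differences are on the scale of log2(FPKM + 1), on which changes of weakly expressed genes appear too small. A difference passed when the p of limma, adjusted by the Benjamini-Hochberg method over all 12003 genes, was under 0.05. These 6 called genes stand beside a background of 32.9% of all genes called in the same averaged comparison of cell types, and the 2 called genes beside 5.37% in the averaged RBC comparison.

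**Figure D1:**
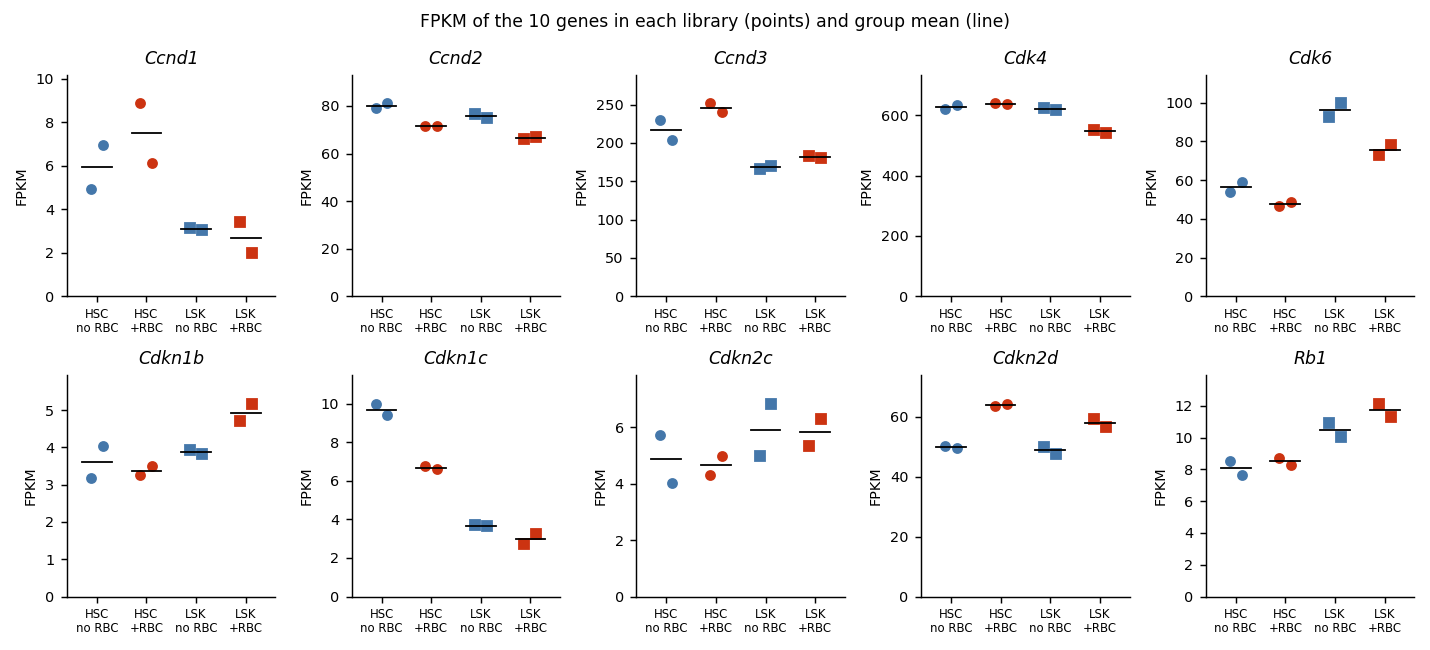
FPKM (vertical axis, from 0, a separate scale for each gene) of the 10 genes in the 8 libraries, by group. Points are single libraries (circles HSCs, squares LSK cells, blue without and red with RBCs) and lines the means of the 2 libraries. Cdkn1c and Cdk6 separate the 4 HSC from the 4 LSK libraries in opposite directions, and Cdkn2d separates the libraries with RBCs from those without.

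The labels were checked against the genes that define the gates. Slamf1, which encodes CD150, had 5.50 to 10.7 FPKM in the HSC libraries against 3.09 to 4.63 in the LSK libraries. Cd48, whose product HSCs were sorted to lack, had 16.0 to 42.7 FPKM in HSCs against 124 to 184 in LSK cells. Flt3, a receptor of multipotent progenitors, had 15.4 to 22.5 against 89.1 to 101 FPKM. None of these 3 genes overlapped between the cell types, as was true of 27.3% of all tested genes. Genes of the gate also moved with RBCs in HSCs, where limma called 4 of 10 beside 2.53% of all genes. In LSK cells it called none of them, beside 3.45%. Cd34, a marker of progenitors, rose from 324 and 316 to 476 and 455 FPKM in HSCs (0.54, adjusted p = 0.0028). Cd48 fell by 1.08 (adjusted p = 0.0069), Kit by 0.37 (0.021) and Procr, which encodes the stem cell marker EPCR, by 0.52 (0.015), while Slamf1 did not pass (-0.70, adjusted p = 0.06). Cd48 was lost without the second HSC library alone, Procr without that one or either HSC library with RBCs, and Kit without any 1 of the 4 HSC libraries (adjusted p up to 0.051, 0.11 and 0.17). The part of this shift in the RBC results in HSCs was not tested.

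Marker genes of other cells differed between the groups. The summed FPKM of 7 RBC genes, of which Slc4a1 was listed at 0 in both libraries of 3 groups, was 2.06 to 4.05 in the 4 libraries without RBCs, 36.9 to 45.2 in LSK cells with RBCs and 122 to 188 in HSCs with RBCs. The summed FPKM of 7 neutrophil genes was 4.61 to 7.53 in HSCs alone and 41.6 to 247 in HSCs with RBCs, against 121 to 210 in LSK cells alone and 347 to 552 with RBCs. For 6 monocyte or macrophage genes, of which C1qa was listed at 0 in all 8 libraries, the sums were 4.08 to 8.05, 13.6 to 16.6, 26.2 to 32.6 and 89.0 to 102 in the same order. Mast cell and basophil genes summed to 1.37 to 6.94 FPKM in the HSC libraries against 27.9 to 98.3 in the LSK libraries. For T and NK cell genes the sums were 58.3 to 63.0, 40.8 to 47.5, 183 to 185 and 132 to 138 in that order, most of it Nkg7. Platelet genes summed to 188 to 225, 180 to 197, 102 to 197 and 75.8 to 86.4, and B cell genes to 34.7 to 51.6 in all libraries. The part of these cells in the results below was not tested. In bulk samples fewer cells of a type and less RNA per cell cannot be told apart.

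The kinase Cdk4 was by far the most abundant of the 10 transcripts, and 1.45% of the tested genes had a mean FPKM at least as high. Ccnd3 came next (4.73%), then Ccnd2 (14.5%), Cdk6 (15.5%) and Cdkn2d (19.4%). Rb1, Cdkn1c, Cdkn2c, Ccnd1 and Cdkn1b all had means below 10 FPKM and lay in the lower part of the ranking, with 59.5% to 78.4% of genes at or above them. For 5 of the 10 genes the FPKM steps between libraries gave whole fragments (within 0.02 of a fragment), and these counts show the depth behind the values. Cdk6 rested on at least 1386 to 3292 fragments per library, Cdkn2d on 635 to 1012, Rb1 on 408 to 649, Ccnd1 on 88 to 418 and Cdkn1b on 94 to 140. If all values of a gene were multiples of a larger number, these would be lower bounds, and for the other 5 genes the depth is unknown beyond the relative depth of the libraries, which ranged from 0.886 to 1.13. Intervals from such counts cover counting error only.

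The D cyclins differed in level, and 2 of the 3 were higher in HSCs. Ccnd1 (chr7:144929931-144939925, minus strand, GRCm38), the cyclin of adherent cells and growth factor responses, was at 4.94 and 6.94 FPKM in HSCs alone, 8.86 and 6.11 in HSCs with RBCs, 3.14 and 3.03 in LSK cells alone and 3.40 and 1.99 in LSK cells with RBCs. All 4 HSC libraries lay above all 4 LSK libraries, but the replicates of 3 groups were far apart. The mean FPKM was 2.32 times higher in HSCs, with a difference of LSK minus HSC of -0.98 (limma, adjusted p = 0.0021) over both conditions and -1.21 (SE 0.236, adjusted p = 0.0065) with RBCs. Without RBCs it was -0.75 and did not pass (adjusted p = 0.066). The difference with RBCs did not pass without the second LSK library with RBCs (-0.93) or the first HSC library with RBCs (-0.97), with adjusted p up to 0.054. RBCs gave no detectable change in Ccnd1, with 0.29 in HSCs (95% interval -0.25 to 0.82) and -0.17 in LSK cells (-0.70 to 0.36). Exons of Ccnd1 share 23.4% of their bases with LTO1 on the opposite strand, and the SMART-Seq library kit does not mark strand, so reads of the overlap cannot be assigned.

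Ccnd3 (chr17:47505051-47599691, plus strand), the most abundant D cyclin here and one on which blood progenitors depend, was at 229 and 203 FPKM in HSCs alone, 251 and 241 in HSCs with RBCs, 166 and 170 in LSK cells alone and 183 and 180 in LSK cells with RBCs. Every HSC library lay above every LSK library. The mean was 1.32 times higher in HSCs, and the LSK minus HSC difference passed without RBCs (-0.36, adjusted p = 0.01) and with RBCs (-0.44, adjusted p = 0.0027). The former did not pass when either LSK library without RBCs was left out, at -0.34 and -0.38 (adjusted p up to 0.062), nor after quantile normalization (-0.26) or with only these 2 groups in the fit. Ccnd3 was 13.7% higher with RBCs in HSCs and 7.97% higher in LSK cells, and neither difference passed (adjusted p = 0.27 and 0.45). Ccnd2 (chr6:127125162-127152193, minus strand), the D cyclin of growth factor signals in blood cells, showed the opposite order with RBCs. It was at 79.0 and 81.1 FPKM in HSCs alone, 71.7 and 71.6 with RBCs, 76.8 and 74.9 in LSK cells alone and 66.2 and 66.7 with RBCs. The 4 libraries with RBCs all lay below the 4 without, yet the mean difference of -0.17 did not pass (adjusted p = 0.061).

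Of the summed FPKM of the 3 D cyclins in a library, Ccnd3 made up 71.5 ± 2.42% (SD, n = 2) in HSCs alone and 75.7 ± 0.1% in HSCs with RBCs, against 68.1 ± 0.804% and 72.4 ± 0.0161% in LSK cells. Ccnd1 never exceeded 2.67%. The share of Ccnd3 was thus higher with RBCs in both cell types, without overlap within a cell type, and such a share does not depend on how libraries are scaled. It was not tested, since it is built from values already described.

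**Figure D2:**
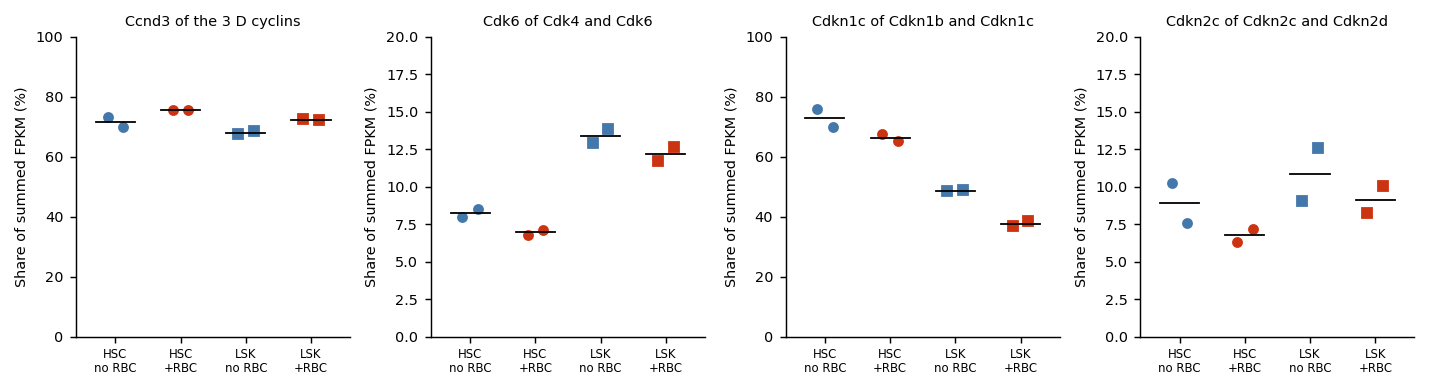
Share (percent of summed FPKM within a library, vertical axis, from 0, with 2 different upper limits) of Ccnd3 among the D cyclins, Cdk6 among both kinases, Cdkn1c in the sum of Cdkn1b and Cdkn1c, and Cdkn2c in the sum of Cdkn2c and Cdkn2d. Points are libraries and lines group means. Cdk6 and Cdkn1c shares separate HSC from LSK libraries, and the Cdkn1c share is lower with RBCs in each cell type.

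Of the kinases, Cdk6 divided the cell types in both conditions, whereas the difference of Cdk4 passed with RBCs and not without. Cdk6 (chr5:3341485-3531008, plus strand) was at 54.0 and 59.3 FPKM in HSCs alone, 46.7 and 48.8 in HSCs with RBCs, 92.5 and 99.6 in LSK cells alone and 73.0 and 78.4 in LSK cells with RBCs. All LSK libraries lay above all HSC libraries, and within each cell type both libraries with RBCs lay below both without. Cdk6 was 1.65 times higher in LSK cells on average, with differences of 0.75 without RBCs (adjusted p = 0.00043) and 0.65 with RBCs (adjusted p = 0.00064), which passed with every library left out. Averaged over the cell types, Cdk6 fell by 0.29 with RBCs (SE 0.0558, adjusted p = 0.018). In HSCs alone the difference was -0.24 (adjusted p = 0.19) and in LSK cells -0.34 (adjusted p = 0.052), so that neither passed by itself. The averaged fall did not pass in the absence of the second LSK library alone, the first LSK library with RBCs or the first HSC library with RBCs (-0.26, -0.27 and -0.27, adjusted p up to 0.079), nor in limma without the trend (adjusted p = 0.068).

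Cdk4 (chr10:127063534-127067920, plus strand) was at 621 and 635 FPKM in HSCs alone and 639 and 636 in HSCs with RBCs. In LSK cells it was at 624 and 618 alone and 551 and 541 with RBCs. Libraries of LSK cells with RBCs were thus the only low ones, and the other 6 lay within 618 to 639. With RBCs the LSK minus HSC difference was -0.22 (adjusted p = 0.018), lost when any library of either group with RBCs was left out (-0.21 to -0.24, adjusted p up to 0.12), under quantile normalization (-0.03) and without the trend (adjusted p = 0.082). The averaged difference was -0.12 (adjusted p = 0.043), and its direction turned under quantile normalization (0.05). It also failed to pass in 6 of the 8 fits that left out a library, all but those without an HSC library cultured alone. Rescaling to a common FPKM sum (-0.07, adjusted p = 0.11), omitting the trend (adjusted p = 0.14) and testing all genes above 0 (adjusted p = 0.053) ended the call too, and it passed in 6 of 17 alternatives. The RBC difference of Cdk4 did not pass in HSCs (0.02, 95% interval -0.10 to 0.15) or in LSK cells (-0.19, adjusted p = 0.11), and the latter passed when either HSC library without RBCs was left out (adjusted p down to 0.044). Of the exonic bases of Cdk4, 19.7% overlap Tspan31 on the opposite strand, itself at 75.2 to 92.2 FPKM. Cdk6 made up 8.27 ± 0.382% (SD, n = 2) of the summed FPKM of both kinases in HSCs alone and 6.96 ± 0.221% with RBCs, and 13.4 ± 0.688% and 12.2 ± 0.678% in LSK cells.

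The sequences upstream of Cdk4, Cdk6 and Cdkn2d are shown because these members are both kinases and the inhibitor that rose with RBCs. Each run holds the 250 bases before the RefSeq start (build GRCm38.p6), read 5′ to 3′ on the strand of the gene, from chr10:127063285-127063534 (plus strand), chr5:3343643-3343892 (plus strand) and chr9:21291210-21291459 (minus strand). In the GENCODE positions used for the genes, the Cdk6 run lies inside the gene (chr5:3341485-3531008). The Cdkn2d run lies partly inside its gene (chr9:21288410-21291407). For these genes the windows are thus upstream of the RefSeq start only, and another start would give other bases. Capitals mark CACGTG, the E-box bound by MYC with MAX, a regulator of Cdk4 and Ccnd2 in other cells.
Cdk4: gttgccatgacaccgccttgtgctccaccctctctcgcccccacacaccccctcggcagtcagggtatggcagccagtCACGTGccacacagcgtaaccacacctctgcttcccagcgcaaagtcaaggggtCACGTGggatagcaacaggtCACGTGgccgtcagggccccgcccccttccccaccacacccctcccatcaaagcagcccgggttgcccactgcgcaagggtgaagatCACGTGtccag
Cdk6: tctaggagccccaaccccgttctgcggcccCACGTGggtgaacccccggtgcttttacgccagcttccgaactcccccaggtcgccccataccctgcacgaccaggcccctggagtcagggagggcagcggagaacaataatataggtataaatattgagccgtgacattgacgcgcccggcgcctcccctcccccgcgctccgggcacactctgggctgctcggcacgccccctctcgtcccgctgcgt
Cdkn2d: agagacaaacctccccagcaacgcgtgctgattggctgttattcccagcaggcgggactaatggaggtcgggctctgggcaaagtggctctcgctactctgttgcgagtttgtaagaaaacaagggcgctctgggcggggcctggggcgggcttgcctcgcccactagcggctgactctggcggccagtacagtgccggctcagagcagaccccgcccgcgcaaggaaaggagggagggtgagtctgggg
CACGTG was found 4 times upstream of Cdk4, starting 172, 118, 98 and 11 bases before the start, and 1 time upstream of Cdk6, at 220 bases. No match was found in the Cdkn2d window. Among 32851 mouse promoters of the same length, 6.02% held the letters at least 1 time and 7 (0.0213%) held them 4 times or more. Both strands were searched, and CACGTG reads the same on each. The E2F sequences TTTCCCGC and TTTGGCGC (0.895% and 0.417% of promoters) and the FOXO sequence GTAAACA (3.17%) were not found in these 3 windows. The N-box CACNAG, held by 36.7% of promoters and known as a sequence bound by HES factors, matched 1 time in Cdk4 and 1 time in Cdkn2d. A match is no evidence of binding. Promoter entries were matched for 6 of the 10 genes, and Ccnd1, Ccnd2, Cdkn1c and Rb1 had none.

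Of the inhibitors Cdkn1b and Cdkn1c, only Cdkn1c passed a test between the cell types. Cdkn1c (chr7:143458339-143461050, minus strand) was at 9.99 and 9.39 FPKM in HSCs alone, 6.75 and 6.59 in HSCs with RBCs, 3.69 and 3.67 in LSK cells alone and 2.74 and 3.23 in LSK cells with RBCs. The lowest HSC library exceeded the highest LSK library, and replicates of a group lay close together. The mean was 2.45 times higher in HSCs, and the LSK minus HSC difference was -1.19 without RBCs (adjusted p = 0.00061) and -0.95 with RBCs (adjusted p = 0.0013), each past the threshold with every library left out. Relative to the mean without RBCs, the mean with RBCs stood at -31.1% in HSCs and -18.9% in LSK cells, without overlap in either, but the differences of -0.48 and -0.23 did not pass (adjusted p = 0.12 and 0.39). The average of -0.36 did not pass either (adjusted p = 0.067), though it did after quantile normalization (-0.39, adjusted p = 0.04) and without the trend (adjusted p = 0.034). The antisense gene Gm44732 covers 30.7% of its exonic bases.

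Cdkn1b (chr6:134920401-134925513, plus strand) stood at 3.17 and 4.02 FPKM in HSCs alone, 3.26 and 3.49 in HSCs with RBCs, 3.92 and 3.83 in LSK cells alone and 4.70 and 5.17 in LSK cells with RBCs. The highest values were those of LSK cells with RBCs, and the other groups overlapped or nearly so. No comparison of Cdkn1b passed, and the largest difference was LSK minus HSC with RBCs, at 0.44 (95% interval 0.10 to 0.78, adjusted p = 0.064). It passed after rescaling to a common FPKM sum (0.51, adjusted p = 0.048) and without the trend (adjusted p = 0.034), where the average of 0.26 also passed (adjusted p = 0.043). Counting error alone amounts to 8.45% to 10.3% of each Cdkn1b value. In the sum of Cdkn1b and Cdkn1c, which leaves out the more abundant Cip/Kip gene Cdkn1a, Cdkn1c held 72.9 ± 4.16% (SD, n = 2) in HSCs alone, 66.4 ± 1.46% in HSCs with RBCs, 48.7 ± 0.342% in LSK cells alone and 37.7 ± 1.14% in LSK cells with RBCs. Cdkn1c was therefore the more abundant of the pair in every HSC library and the less abundant in every LSK library.

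Among the INK4 inhibitors only Cdkn2d passed a test. Cdkn2d (chr9:21288410-21291407, minus strand) was at 50.3 and 49.5 FPKM in HSCs alone, 63.7 and 64.4 in HSCs with RBCs, 50.0 and 47.5 in LSK cells alone and 59.4 and 56.5 in LSK cells with RBCs. All 4 libraries with RBCs lay above all 4 without, as for 5.23% of all tested genes in either direction. Cdkn2d rose by 28.2% in HSCs, a difference of 0.35 (SE 0.0693, adjusted p = 0.033), the only one of the 10 genes called there beside 2.53% of all genes. In LSK cells it was 18.9% higher, at 0.24 (adjusted p = 0.099). The average over both was 0.30 (SE 0.0490, adjusted p = 0.0083) and passed with every library left out (0.28 to 0.32, adjusted p 0.019 to 0.044). The call in HSCs was less firm. It was lost without any 1 of the 4 HSC libraries and without either LSK library with RBCs (0.34 to 0.36, adjusted p up to 0.18). With the replicate number as a block the adjusted p was 0.056, with all genes above 0 tested 0.054 and without the trend 0.1.

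Cdkn2c (chr4:109660876-109667189, minus strand) was at 5.74 and 4.04 FPKM in HSCs alone, 4.31 and 4.99 in HSCs with RBCs, 4.98 and 6.84 in LSK cells alone and 5.35 and 6.30 in LSK cells with RBCs. Replicates differed by as much as groups did, and no comparison passed. The averaged RBC difference was -0.03 with a 95% interval of -0.34 to 0.28. Cdkn2c made up between 6.34% and 12.6% of the summed FPKM of Cdkn2c and Cdkn2d, so Cdkn2d was the higher of the pair in every library.

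Rb1 (chr14:73183673-73325822, minus strand) was at 8.54 and 7.62 FPKM in HSCs alone, 8.75 and 8.31 in HSCs with RBCs, 10.9 and 10.04 in LSK cells alone and 12.1 and 11.3 in LSK cells with RBCs. Every LSK library lay above every HSC library, and the mean was 1.34 times higher in LSK cells. The averaged difference was 0.38 (adjusted p = 0.0078), with 0.34 (adjusted p = 0.09) without RBCs and 0.42 (adjusted p = 0.03) with RBCs. The last did not pass without any 1 of the 4 libraries with RBCs (0.37 to 0.46, adjusted p up to 0.14) or after quantile normalization (0.35, adjusted p = 0.05). RBCs gave 0.07 in HSCs (95% interval -0.19 to 0.34) and 0.15 in LSK cells (-0.11 to 0.41). Lpar6, which lies inside Rb1 on the opposite strand and was at 67.5 to 121 FPKM, overlaps 6.78% of its exonic bases, and Rcbtb2 a further 8.11%.

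**Figure D3:**
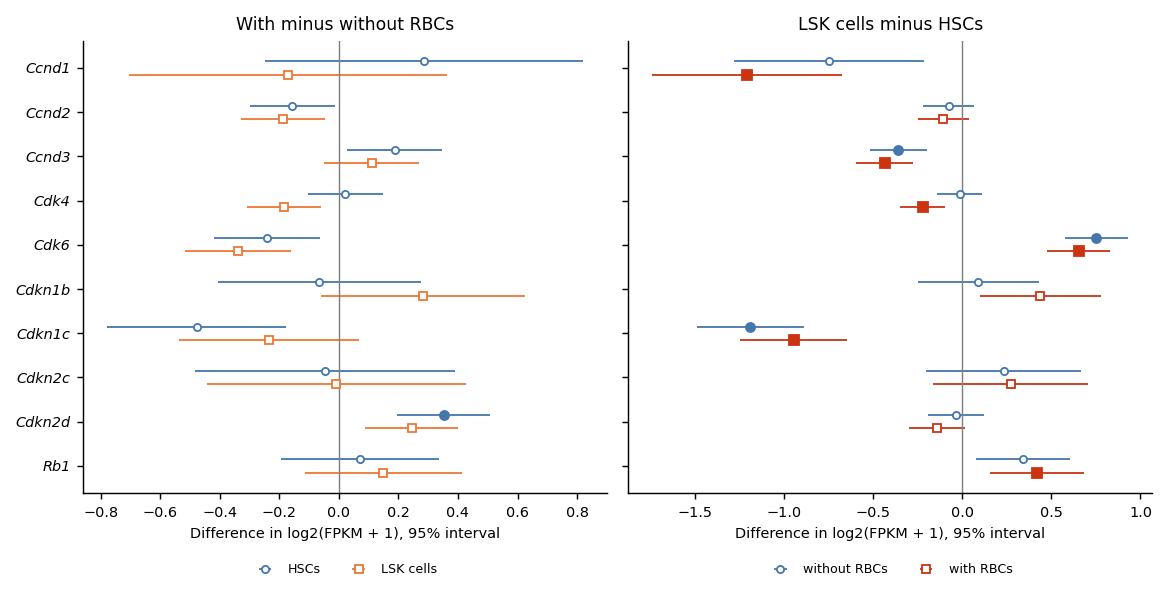
Differences in log2(FPKM + 1) of the 10 genes with 95% intervals from the fit of all 4 groups, with minus without RBCs (left) and LSK cells minus HSCs (right). Filled markers passed the adjusted p of 0.05. Cdkn2d in HSCs is the only filled marker on the left, and Cdk6 lies at the right and Cdkn1c at the left of 0 on the right panel in both conditions.

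Counted together, 3 of the 10 genes differed between LSK cells and HSCs without RBCs (Cdk6, Cdkn1c and Ccnd3), against 14.2% of all genes, and 6 with RBCs, against 24.4%. Without RBCs 1 gene was higher in LSK cells (6.93% of all genes) and 2 were lower (7.29%), and with RBCs 2 were higher (11.9%) and 4 lower (12.5%). The groups in each pair share no libraries, but both comparisons use the same fit, and the difference between them is the interaction given below. Leaving out the second LSK library or the first HSC library with RBCs reduced the second count to 3. The 4 HSC and 4 LSK libraries did not overlap for 5 of the 10 genes (Ccnd1, Ccnd3, Cdkn1c, Cdk6 and Rb1), against 27.3% of all genes. In an exact two-sided permutation of cell type labels within culture conditions, each of these 5 genes and Ccnd2 reached p = 0.0556, the smallest that 36 arrangements allow, so that this test cannot pass 0.05. The median absolute difference of the 10 genes was 0.32, against 0.18 for all genes.

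With RBCs, 1 of the 10 genes was called in HSCs and none in LSK cells, where 3.45% of all genes were called by limma. At an unadjusted p under 0.05 there were 5 genes in HSCs (Ccnd2, Ccnd3, Cdk6, Cdkn1c and Cdkn2d) and 4 in LSK cells (Ccnd2, Cdk4, Cdk6 and Cdkn2d), with 13.7% and 18.6% of all genes. In LSK cells Cdk6 and Cdk4 were called when either HSC library without RBCs was left out. Libraries with and without RBCs did not overlap for 6 of the 10 genes in HSCs (41.7% of all genes) and for 8 in LSK cells (50.7%), and over both cell types for 2, Cdkn2d and Ccnd2 (5.23%). The difference between the RBC effects in HSCs and LSK cells passed for none of the 10 genes (0.133% of all genes), with 1 at an unadjusted p under 0.05 (12.5% of all genes). That gene was Cdk4 (0.21, SE 0.0784, adjusted p = 0.33).

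Further genes of the same pathway were taken from lists. Among other CDK inhibitors, Cdkn1a, which encodes p21, was at 88.4 and 96.6 FPKM in HSCs alone, 99.7 and 87.6 with RBCs, 169 and 172 in LSK cells alone and 190 and 184 with RBCs. It was higher in LSK cells in both conditions (0.88 and 0.99, adjusted p = 0.00016 and 7e-05), the reverse of Cdkn1c, and its RBC differences of 0.02 and 0.13 did not pass. Cdkn2a was listed at 0 in all 8 libraries and Cdkn2b did not exceed 0.21 FPKM. Of 16 pocket proteins and E2F factors, 9 were lower in LSK cells with RBCs (12.5% of all genes) and none higher, and 2 were lower without RBCs (7.29% of all genes). Leaving out 1 library moved these counts to 2 to 9 and 0 to 1. Rbl1, encoding the pocket protein p107, had 23.5 to 27.8 FPKM in HSCs, above the 12.97 to 19.1 of LSK cells, with differences of -0.50 without RBCs (adjusted p = 0.031) and -0.88 with RBCs (adjusted p = 0.0015). The former was lost without the second LSK library alone or the first HSC library alone (adjusted p up to 0.18). Rbl2, encoding p130, lay between 22.3 and 29.4 FPKM and passed no test. E2f1 was at 40.6 and 29.3 FPKM in HSCs alone and 31.5 and 34.4 in LSK cells alone, which overlapped, and at 35.6 and 34.2 against 25.8 and 24.5 with RBCs (-0.46, adjusted p = 0.036). That call was lost without any 1 of the 4 libraries with RBCs (adjusted p up to 0.16).

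In the cyclin E/A and CDK2 list of 10 genes, 4 were lower (12.5% of all genes) and 1 higher (11.9%) in LSK cells with RBCs. Without RBCs 1 was higher (6.93%). The lower ones were Ccne1 (-0.60, adjusted p = 0.011), Ccne2, Ccna2 and Cks1b, which act at the G1/S boundary and in S phase, and Cks2 was higher (0.43 in both conditions, lost without RBCs when the first LSK library alone was left out, adjusted p = 0.054). Among 12 ubiquitin ligase parts, Skp2, which targets p27 and p57 for degradation, was at 10.9 to 12.4 FPKM in HSCs and 4.98 to 7.06 in LSK cells. The differences were -0.63 without RBCs (adjusted p = 0.0087) and -1.06 with RBCs (adjusted p = 0.00042). The former came to an adjusted p of 0.05 without the first LSK library alone. Leaving out 1 library moved the count of the cyclin E/A list with RBCs from 5 to between 2 and 6, and Ccne1 was lost without the second library of LSK cells or of HSCs with RBCs (adjusted p up to 0.082). Ccna2 was lost without the same libraries (up to 0.064), and Ccne2 without any 1 of the 4 libraries with RBCs (up to 0.1). With RBCs, limma called none of the pocket protein, cyclin E/A and ubiquitin ligase genes in either cell type. Of all genes, 2.53% were called in HSCs and 3.45% in LSK cells. At an unadjusted p under 0.05 these lists of 16, 10 and 12 genes had 2, 2 and 1 in HSCs and 5, 1 and 1 in LSK cells, beside the 13.7% and 18.6% of all genes.

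S phase genes, which E2F factors drive, were lower in LSK cells than in HSCs in both conditions, and more passed with RBCs. All 18 differences of LSK minus HSC lay below 0 without RBCs (median -0.27) and with RBCs (median -0.66). The average over both conditions passed for 17 genes, beside 32.9% of all genes called. Taken by condition, 7 genes passed without RBCs (7.29% of all genes were called lower) and 17 with RBCs (12.5%). Leaving out 1 library moved these counts to 2 to 5 and 14 to 17. With RBCs limma called none of the 18 in HSCs (2.53% of all genes), with 2 at an unadjusted p under 0.05 (13.7%). In LSK cells 5 genes fell (3.45% of all genes called), namely Mcm2, Mcm5, Mcm6, Mcm7 and Uhrf1, the last named after its values were seen. The first 4 encode parts of the replicative helicase. In LSK cells 11 of the 18 genes had an unadjusted p under 0.05, all lower with RBCs (18.6% of all genes in either direction). Mcm5 was at 155 and 126 FPKM in HSCs alone, 159 and 156 with RBCs, 96.3 and 102 in LSK cells alone and 74.7 and 69.4 with RBCs, with a difference of -0.46 in LSK cells (adjusted p = 0.036), lost without any 1 of the 4 LSK libraries or either HSC library with RBCs (adjusted p up to 0.22). Leaving out 1 library moved the count of 5 to between 0 and 5. The difference between the RBC effects had a median of 0.32 over the 18 genes, and none of them passed (0.133% of all genes). At an unadjusted p under 0.05 there were 10 (12.5% of all genes). The median over all genes was 0.0013. In the G2 and M phase list of 15 genes, 3 were higher (6.93% of all genes) and none lower (7.29%) in LSK cells without RBCs. With RBCs 1 was higher (11.9%) and 5 were lower (12.5%). Leaving out 1 library moved the second count of 6 to between 3 and 7. Ccnb1, the mitotic cyclin, was higher in LSK cells in both conditions (0.55 and 0.35, adjusted p = 0.0011 and 0.0063). Ube2c, which works with the anaphase-promoting complex, was called with RBCs in HSCs (0.50, adjusted p = 0.0069), and not without the first HSC library with RBCs (adjusted p = 0.072). Mki67 lay between 8.79 and 10.6 FPKM in all libraries.

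**Figure D4:**
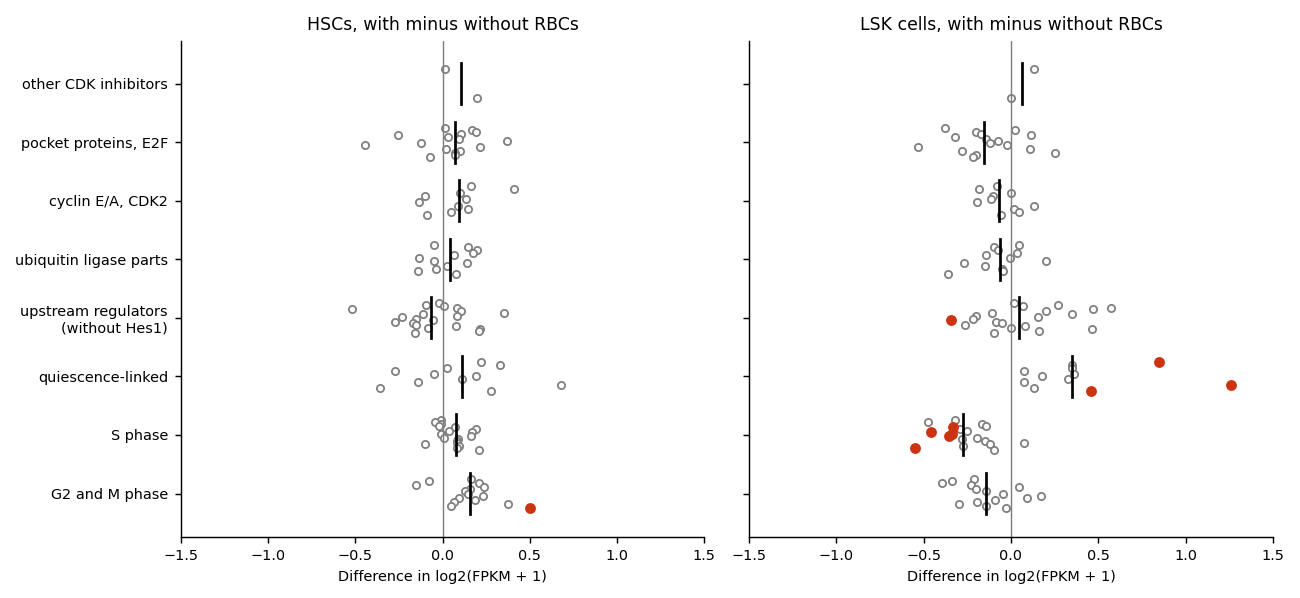
Differences in log2(FPKM + 1), with minus without RBCs, for the genes of 8 further lists in HSCs (left) and LSK cells (right). Points are genes, red points passed the adjusted p of 0.05 and vertical bars are list medians. Hes1, at 2.66 and 1.81, lies outside the axis and is not drawn. The S phase median is 0.08 in HSCs and -0.28 in LSK cells, and that of the quiescence-linked list 0.11 and 0.35.

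Upstream regulators were measured in a list of 21 tested genes. Hes1, the Notch-responsive repressor, was at 1.80 and 2.46 FPKM in HSCs alone and 21.3 and 16.4 with RBCs, and at 3.56 and 2.26 in LSK cells alone and 13.04 and 11.97 with RBCs. It rose in both (2.66 and 1.81, adjusted p = 0.0003 and 0.0019). Myc, which drives Ccnd2 and Cdk4 in many cells, was at 269 and 281 FPKM in LSK cells alone and 214 and 219 with RBCs, and fell by 0.34 (adjusted p = 0.03). In HSCs it was at 235 and 223 alone and 232 and 209 with RBCs. The fall of Myc did not pass without any 1 of the 4 LSK libraries (adjusted p up to 0.17). Of 11 antiproliferative and quiescence-linked genes, limma called none with RBCs in HSCs (2.53% of all genes). There 5 had an unadjusted p under 0.05, 3 of them higher and 2 lower (13.7% of all genes). In LSK cells 3 rose with RBCs (3.45% of all genes called). Btg1, an antiproliferative gene of resting lymphocytes, was at 12.2 and 12.7 FPKM in LSK cells alone and 22.6 and 23.8 with RBCs (0.85, adjusted p = 0.0075). The others were Txnip (0.46), which restrains glucose uptake, and Klf2 (1.26), a quiescence factor of T cells named after its values were seen, at 0.72 to 3.23 FPKM in LSK cells. Leaving out 1 library moved this count to between 0 and 3, with Txnip lost without the second LSK library with RBCs, Btg1 without that one, the first LSK library with RBCs or the first alone, and Klf2 without either LSK library with RBCs (adjusted p up to 0.066, 0.076 and 0.057). Ccng2 and Btg2 were higher in LSK cells than in HSCs in both conditions (0.80 and 1.21, and 1.16 and 1.18).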

How the data were processed

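CD45-positive cells were sorted after 1 day of culture, and their total RNA was made into full-length cDNA (SMART-Seq HT) and Nextera XT libraries. The authors deposited one FPKM table for each of the 8 libraries, in which fragments are already scaled by transcript length and library size. The submitters' processing notes list TopHat2 2.1.1, Bowtie2 2.2.8, SAMtools 0.1.18, Cuffdiff 2.2.1 and the build mm10. The annotation and the strand setting are not given in the sources used here.

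Values were analysed as log2(FPKM + 1), so with a pseudocount of 1. A gene was tested when 2 or more libraries reached an FPKM of 1, which kept 12003 genes. The 4 group means were fitted jointly with a mean-variance trend in limma 3.58.1 (R 4.3.3), which had 4 residual and 5.18 prior degrees of freedom. Two-sided p-values were adjusted over all these genes (Benjamini-Hochberg, threshold 0.05), and the fit was tested on simulated data. Permutations, shares, fragment counts (searched up to 2000) and motif matches were computed in Python 3.11.15.

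All 10 genes are named. From each further list up to 5 genes with the lowest p among those past the threshold could be named, and 11 genes in any case. The genes, lists and rule were chosen with earlier results of these data known. Gene positions came from GENCODE M21 (GRCm38) and promoters from RefSeq (GRCm38.p6). Results were recomputed with other pseudocounts, filters, scalings, thresholds and sets of groups, without the trend, without short RNA genes, with a replicate block and with each library left out. Replicate numbers were not treated as pairs, because deviations of same-numbered libraries correlated by only -0.07 to 0.10 between groups.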

Additional observations from a re-analysis of the deposited data

Results flagged for a closer look

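Cdk4 was noted because both libraries moved in opposite directions with RBCs in the 2 cell types. In HSCs both libraries with RBCs (639 and 636 FPKM) lay above both without (621 and 635), and in LSK cells both with RBCs (551 and 541) lay below both without (624 and 618). The RBC effect in HSCs minus that in LSK cells was 0.207 on the log2(FPKM + 1) scale, with an unadjusted p of 0.026 and an adjusted p of 0.33 in limma, so the difference did not pass. In HSCs the gap between the groups was smaller than the gap between the replicates without RBCs.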

How the results depend on the processing

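Of 18 member comparisons that passed, 266 of their 306 alternative values stayed past the threshold in the same direction, 39 did not pass and 1 reversed (Cdk4, LSK minus HSC over both conditions, 0.0519 after quantile normalization). Where no cause is named, the cause was not tested.

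Counts of the 10 genes called moved as follows, where 2-fold means a difference of at least 1 in log2(FPKM + 1), not in FPKM. The single call in HSCs with RBCs went to 0 with all genes above 0 tested, without the trend, with only the HSC groups fitted and at a 2-fold threshold, and to between 0 and 1 with 1 library left out. The count of 0 in LSK cells went to 1 without short RNA genes, 2 at an adjusted p under 0.1, and 0 to 2 with 1 library left out. The averaged RBC count of 2 went to 0 at 2-fold, 4 at 0.1, and 1 to 3 with 1 library left out. LSK minus HSC went from 3 to 1 at 2-fold and 5 at 0.1 without RBCs, from 6 to 1 at 2-fold and to between 3 and 6 with 1 library left out with RBCs, and from 6 to 1 at 2-fold when averaged. Fits without a library assume that the lone library of its group varies like the others, and have fewer degrees of freedom.

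The replicate block gave 0 calls with RBCs in HSCs and 1 in LSK cells (Cdk6), and left the averaged Cdk4 difference between cell types with an adjusted p of 0.082 and Cdkn2d in HSCs with 0.056. Whether libraries with the same number share an animal or culture is not stated. Their deviations correlated by only -0.07 to 0.10 between groups.

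Reversals otherwise concerned values that had not passed. Under rescaling to a common FPKM sum these were Cdk4 (0.0318) and Cdkn2d (0.0127) for LSK minus HSC without RBCs, and Cdkn2c with RBCs in LSK cells (0.0228) and on average (0.0017). Quantile normalization gave 0.1339 for Cdk4 between cell types without RBCs and 0.0065 for the Cdkn2c interaction. With 1 library left out, RBC differences ranged from -0.4512 to 0.1077 (Ccnd1, LSK cells), -0.0827 to 0.1968 (Ccnd1, average), -0.1993 to 0.0674 (Cdkn1b, HSCs), -0.2557 to 0.1621, -0.2034 to 0.1859 and -0.1322 to 0.0767 (Cdkn2c, HSCs, LSK cells, average) and -0.0025 to 0.1445 (Rb1, HSCs). Interactions ranged from -0.0096 to 0.163 (Ccnd3) and -0.2469 to 0.1709 (Cdkn2c), and cell type differences without RBCs from -0.0431 to 0.2236 (Cdkn1b) and -0.0705 to 0.0021 (Cdkn2d).

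With 2 libraries a group, the 95% intervals of the RBC differences in HSCs were wider for Cdkn1b and Cdkn2c than for Cdk4. Depth is known only in part, and overlapping antisense genes cannot be separated.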

Other observations

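The genes whose log2(FPKM + 1) followed each of 3 members most closely over the 8 libraries are given as a description. The libraries fall into HSC and LSK groups and these members differ between them, so a correlation over all 8 libraries includes that split. The size of its part was not tested. The 2 libraries of a group share cell type and culture condition. Each r was picked as one of the highest among the 12003 genes tested. For Cdk6 the highest Pearson's r were those of Anxa4 (0.99), Calhm2 (0.99) and Nkg7 (0.99). Anxa4, an annexin, had 84.2 and 86.7 FPKM in LSK cells alone, 73.8 and 77.2 with RBCs, 64.1 and 66.9 in HSCs alone and 58.6 and 56.4 with RBCs, the same order of groups as Cdk6. Nkg7, a granule protein gene of cytotoxic lymphocytes, was at 182 and 184 FPKM in LSK cells alone and 39.8 and 46.8 in HSCs with RBCs. For Cdkn1c they were Prr5l (0.99), Hmga1 (0.99) and Oaf (0.99). Hmga1, an architectural chromatin protein gene, had 71.6 and 70.8 FPKM in HSCs alone, 63.4 and 59.1 in HSCs with RBCs, 41.0 and 43.0 in LSK cells alone and 40.0 and 40.1 in LSK cells with RBCs. For Ccnd3 they were Vdr (0.99), Map4k2 (0.99) and Tex261 (0.98). Vdr, the vitamin D receptor gene, had 15.7 and 13.6 FPKM in HSCs with RBCs and 7.63 in both LSK libraries alone.

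Among the 10 genes themselves, Ccnd3 and Cdk6 ran most strongly against each other (r = -0.97, n = 8), followed by Cdkn1c and Rb1 (r = -0.94), again over libraries that separate by cell type.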
